A study of Homo sapiens with 29 samples.

Results

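The genes described here carry out 2 steps of protein synthesis: the translation factors, which start and extend the protein chain at the ribosome, and the aminoacyl-tRNA synthetases, which load each tRNA with its amino acid. They were chosen by symbol alone: genes named EIF1 to EIF6, EEF1 or EEF2 (the kinases named EIF2AK and pseudogenes left out), and synthetase genes named by an amino acid letter and ARS, with EPRS1. Of the 12165 genes measured, 79 met this rule, among 103 such protein-coding genes in the RefSeq gene table; the other 24, EIF3C, EIF4G3, EEF2K, EEF1E1 and FARSB among them, were not analysed here. RNA came from DHL4 and DHL6, established cell lines of human diffuse large B-cell lymphoma, a tumour of mature B cells. Cells were given 1 µM R406, which inhibits SYK, a tyrosine kinase acting just below the B-cell receptor, for 2, 6, 24 or 48 h, or its solvent DMSO alone. Each of the 10 groups has 3 arrays, except DHL4 DMSO with 2, which makes 29 arrays. No time is on the labels of the DMSO arrays, and each line's 4 R406 times were set against the same DMSO arrays, so treatment time and culture time cannot be told apart and the comparisons within a line share their control. Each line is a single culture model with no untreated patient cells, and since nothing states that replicates are independent cultures, a p-value covers only array-to-array spread, possibly technical.

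Translation begins when eIF2 brings the initiator tRNA to the small ribosomal subunit, which eIF3 and the cap-binding eIF4 factors place on the mRNA. The elongation factors eEF1 and eEF2 then deliver charged tRNAs and move the ribosome along. In B cells these genes are known for their ties to growth control: mTORC1 frees eIF4E from its binding proteins, MYC drives many factor genes, and the transcription factor ATF4 drives many synthetase genes when amino acids run short.

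Values are deposited log2 expression values per probe set, so a difference of 1 is a doubling, and each gene takes the value of its brightest probe set on average. They ran from 1.99 to 13.5 over all genes, and 5 of the 79 genes stayed under 4, near the floor, in every group (EEF1G, EIF5A2, RARS2, EEF1AKMT2 and EEF1AKMT3). The single-gene probe sets of EEF1G had means of 3.42, 2.84 and 2.73, and whether they report its transcript was not tested. Replicate arrays correlated at 0.978 to 0.996. Of 7 B-cell markers 5 were measured, and MS4A1, CD79A, CD79B and CD74 were between 8.30 and 11.7 in every group mean, while PAX5 was at the floor. All 5 measured T-cell markers and all 4 measured monocyte markers stayed under 4. Of 6 fibroblast and endothelium markers, COL1A1, COL1A2, COL3A1 and VWF stayed under 4 in every group mean, and so did DCN and PECAM1 in DHL6. In DHL4, DCN fell from 8.43 in DMSO to 6.45 at 6 h and 4.42 at 24 h and was at 8.68 at 48 h, while PECAM1, which some blood cells also make, rose from 3.08 to 4.16, 7.64 and 4.79 at those times. Both moved with the DHL4 response described below, and their part in it was not tested. A shift of log2 values in bulk RNA cannot tell fewer expressing cells from less RNA per cell. Below, "rose" and "fell" are used of genes with a limma adjusted p (Benjamini-Hochberg over all 12165 genes) under 0.05, values are log2 fold change ± standard error (SE), and fold values are taken from it. Of the 4 arrays with the lowest upper quartile of log2 values (DHL4 2 h replicate 3, DHL6 6 h replicate 3, DHL6 48 h replicates 1 and 3), 3 are in DHL6. Without these 4, DHL6 48 h is left with replicate 2 alone. For a probe set other than the one used, the adjusted p is from a fit by probe set rather than by gene.

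In DHL4 more of the genes fell than rose at each time, and the count was highest at 24 h. At 2 h, 10 of 79 fell and 0 rose (12.7% called, against 9.48% of all genes, of which 6.81% fell and 2.67% rose). At 6 h, 26 fell and 1 rose (34.2%, against 12.8% of all genes, 6.36% lower and 6.42% higher). At 24 h, 41 fell and 6 rose (59.5%, against 29.5% of all genes, 16.5% lower and 13% higher), and the median of the 79 was -0.50 against 0.03 for all genes. At 48 h, 15 fell and 3 rose (22.8%, against 7.33% of all genes, 3.8% lower and 3.53% higher). After quantile normalization of the arrays the splits were 10 lower and 4 higher at 2 h, and 36 lower and 11 higher at 24 h. Without DHL4 DMSO replicate 1 the counts were 6 at 2 h, 17 at 6 h and 10 at 48 h, and without DHL4 DMSO replicate 2 the count at 48 h was 10.

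In DHL6 fewer of the genes passed than in DHL4 at 6 and 24 h, about as many at 2 h and more at 48 h. At 2 h, 6 genes fell and 5 rose (13.9% of 79 called, against 5.29% of all genes, 3.16% lower and 2.14% higher). At 6 h, 3 fell and 6 rose (11.4%, against 8.26% of all genes, 5.12% lower and 3.14% higher), a called share near that of all genes. At 24 h, 11 fell and 7 rose (22.8%, against 14.4% of all genes, 8.17% lower and 6.2% higher). At 48 h, 29 fell and 5 rose (43.0%, against 23.3% of all genes, 14.9% lower and 8.39% higher), with a median of -0.20 against 0.04 for all genes. Quantile normalization gave 3 lower and 11 higher at 6 h, 9 and 12 at 24 h, and 24 and 13 at 48 h, and centring each array on its median gave 14 lower and 5 higher at 24 h. The count at 48 h was lower without the 4 arrays named above, but DHL6 48 h is then left with replicate 2 alone, so it is not given. The count at 2 h was 6 without DMSO replicate 1, 7 without 2 h replicate 2 and 17 without those 4 arrays. At 6 h it was 5 without DMSO replicate 1 or replicate 2 and 4 without DMSO replicate 3.

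**Figure D1:**
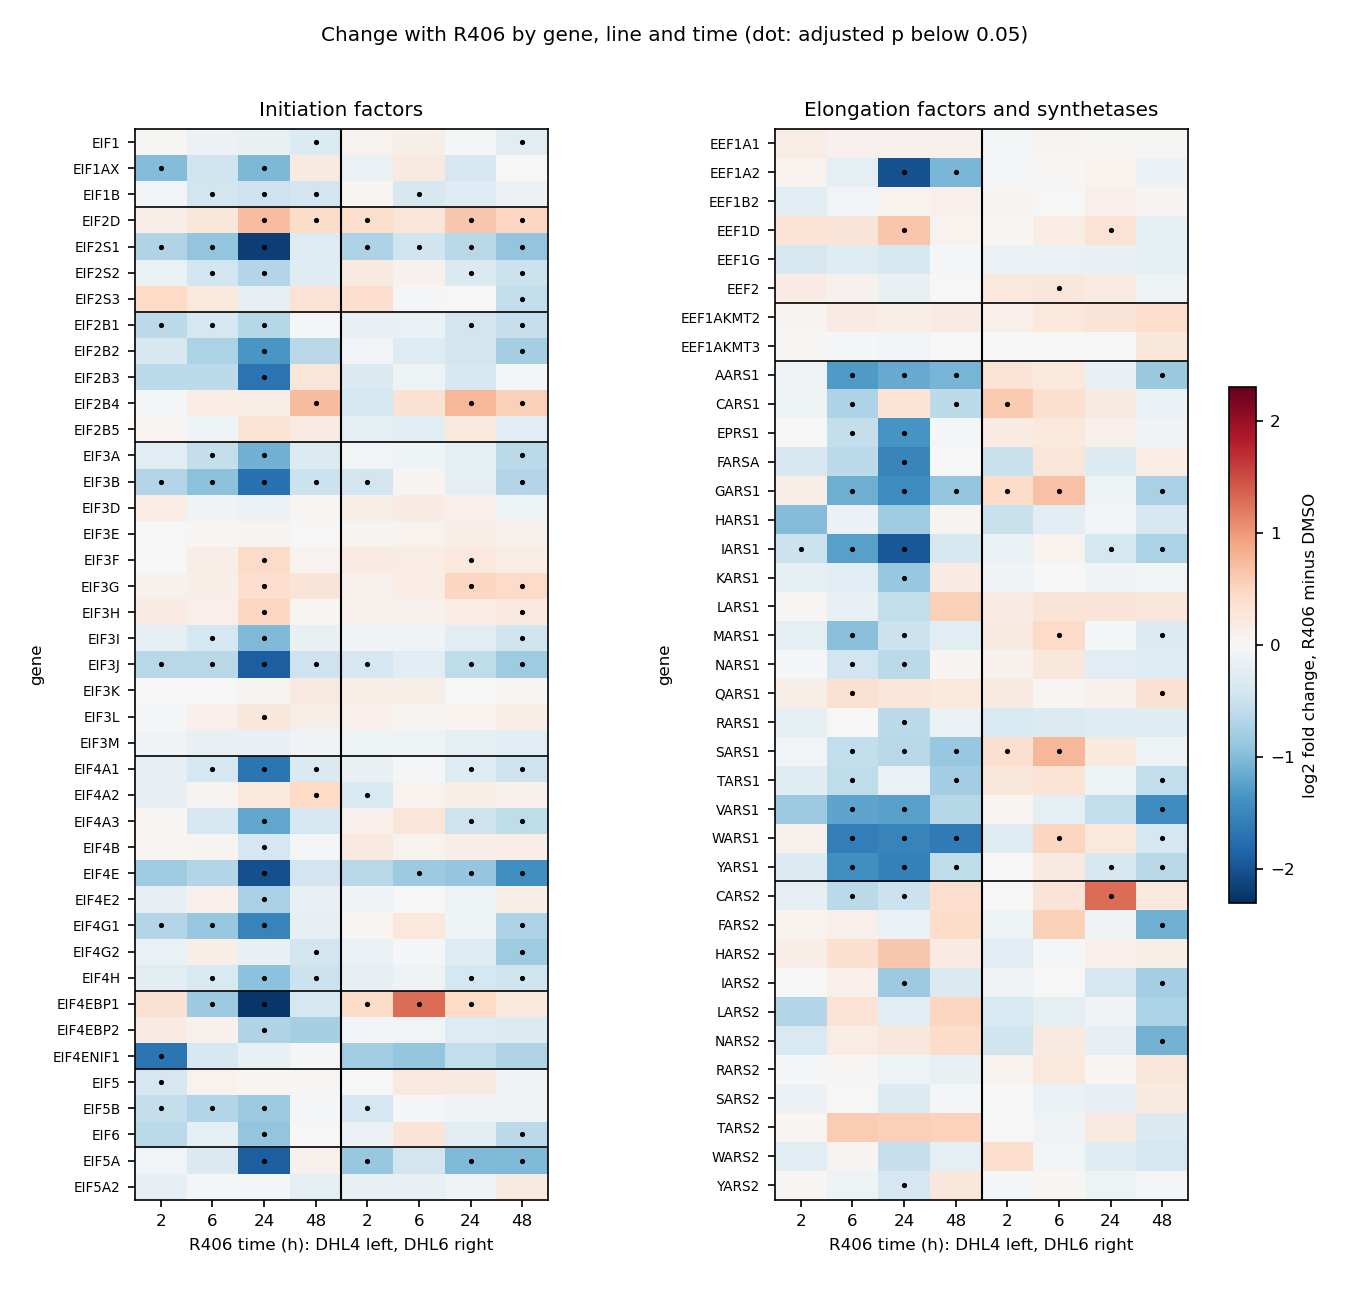
Log2 fold change of R406 against DMSO for 78 of the genes (vertical, grouped by role) at each time in each line (horizontal); colour is the log2 fold change and a dot marks a limma adjusted p under 0.05. The DHL4 24 h column holds the most dots, and most of the cytosolic synthetases are below 0 there, while at 6 h several of them are below 0 in DHL4 and above 0 in DHL6.

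Over the 8 comparisons with DMSO, 51 genes fell in at least 1 and 17 rose in at least 1, 8 of these in both directions. The other 19 passed in none with the probe set used, EEF1A1, EIF2B5, EIF3D, EIF3E and LARS1 among them. A dimmer probe set of EIF3M, also of the 19, fell in DHL4 at 24 h (-0.61) and in DHL6 at 48 h (-0.62). EIF3B and EIF3J fell at all 4 times in DHL4, and EIF2S1 at all 4 times in DHL6 with the probe set used. The EIF2S1 call at 6 h in DHL6 (-0.46 ± 0.14, limma adjusted p = 0.0350) was lost without any of DMSO replicates 1, 2 and 3 or 6 h replicate 3 (adjusted p up to 0.265). Dimmer probe sets of EIF2S1 passed in DHL6 at 48 h only. In DHL6 at 48 h EIF5 did not pass with the probe set used (-0.09), while dimmer ones fell (-0.89, -0.81 and -0.99) or did not pass (-0.27).

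The eIF4 group recruits mRNA by its cap. In DHL4 at 24 h, 7 of its 9 genes fell (EIF4E, EIF4E2, EIF4G1, EIF4A1, EIF4A3, EIF4B and EIF4H), and in DHL6 6 of 9 fell at 48 h. The EIF4B call (-0.39) was lost without DHL4 24 h replicate 2 (-0.25, limma adjusted p = 0.0506) and after quantile normalization. EIF4E, the cap-binding protein, read 7.05 and 6.68 in DHL4 DMSO and 4.77, 4.70 and 5.03 at 24 h, then 6.73, 6.71 and 5.83 at 48 h. In DHL6 it read 6.14, 6.00 and 6.23 in DMSO and 4.17, 5.22 and 4.75 at 48 h. The DHL4 24 h arrays and the DHL6 48 h arrays lay below all DMSO arrays of their line. The change was -2.03 ± 0.27 in DHL4 at 24 h, a 4.08-fold fall (limma adjusted p = 1.26e-06), and -1.41 ± 0.24 in DHL6 at 48 h (0.000108). The latter call was lost without the 4 arrays of lowest upper quartile, with replicate 2 alone left in DHL6 48 h. Whether those arrays or the smaller group cost the call cannot be told. In DHL6 EIF4E also passed at 6 h (-0.84 ± 0.24, adjusted p = 0.0296) and 24 h (-0.88 ± 0.24, 0.0131). The 6 h call was lost without any of DMSO replicates 1, 2 and 3 or 6 h replicate 3, the adjusted p reaching 0.180, and the 24 h call without DMSO replicate 3 (0.0540) or 24 h replicate 2 (0.0790). Both dimmer probe sets of EIF4E also passed as lower in DHL4 at 6 h (-0.91 and -0.77) and 48 h (-0.62 and -0.72), where the probe set used did not. In DHL6 neither passed at 6 h (0.03 and -0.39), and only the second did at 24 h (-0.07 and -0.83) and 48 h (-0.13 and -0.70).

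EIF4G1, the scaffold that joins eIF4E to the helicase, read 8.11 and 7.99 in DHL4 DMSO and 6.33, 6.88 and 6.32 at 24 h, with no overlap. It fell by 1.54 ± 0.16 there (limma adjusted p = 2.83e-08) and had fallen by 0.67 ± 0.16 at 2 h (0.00697; 0.109 without DHL4 DMSO replicate 1). EIF4A1, the helicase, read 10.89 and 10.86 in DHL4 DMSO, 9.17, 9.25 and 9.14 at 24 h and 10.67, 10.55 and 10.40 at 48 h. The 24 h arrays stood more than a full log2 unit below every other DHL4 array of this gene, a 3.21-fold fall (-1.68 ± 0.10, adjusted p = 1.53e-12). Its close relative EIF4A2 read 10.83 and 10.70 in DMSO and 11.00, 11.01 and 11.00 at 24 h, where it did not pass (0.24 ± 0.09, adjusted p = 0.0584), and rose at 48 h (0.45 ± 0.09, 0.00234; 0.0785 without DHL4 DMSO replicate 2). For EIF4A1 in DHL6 at 24 h the probe set used here gave -0.30 ± 0.09 (limma adjusted p = 0.0228). A dimmer probe set of the gene gave 1.12 (limma adjusted p by probe set = 0.000308), so no direction is given for this gene there.

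The eIF4E-binding proteins compete with eIF4G for eIF4E. EIF4EBP1, which mTORC1 inactivates by phosphorylation, read 6.84 and 6.71 in DHL4 DMSO, 6.01, 6.01 and 5.81 at 6 h, 4.56, 4.48 and 4.57 at 24 h and 6.34, 6.39 and 6.40 at 48 h. In DHL6 it read 6.62, 6.84 and 6.66 in DMSO, 7.91, 8.21 and 7.85 at 6 h and 7.15, 7.14 and 7.20 at 24 h. The gene was low in all DHL4 arrays of 6 and 24 h and high in all DHL6 arrays of the same times. Its fall in DHL4 was 1.78-fold at 6 h (-0.83 ± 0.13, limma adjusted p = 5.09e-05) and 4.71-fold at 24 h (-2.24 ± 0.13, 9.3e-13), while in DHL6 it rose 2.43-fold at 6 h (1.28 ± 0.12, 2.24e-08) and by 0.46 ± 0.12 at 24 h (0.00799). EIF4ENIF1, which carries eIF4E into the nucleus, read 5.75 and 5.87 in DHL4 DMSO and 3.92, 4.72 and 3.74 at 2 h, then 5.40 to 5.49 at 6 h. Only the 2 h arrays were low (-1.68 ± 0.39, adjusted p = 0.00493; -1.62 and 0.0602 without DHL4 DMSO replicate 2). EIF4EBP2, a relative of EIF4EBP1, passed in DHL4 at 24 h only (-0.70 ± 0.24, 0.0304), a call lost after quantile normalization, with the replicate number as a block and without DHL4 DMSO replicate 1 (0.139) or 2 (0.112) or 24 h replicate 2 (0.128) or 3 (0.0814).

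**Figure D2:**
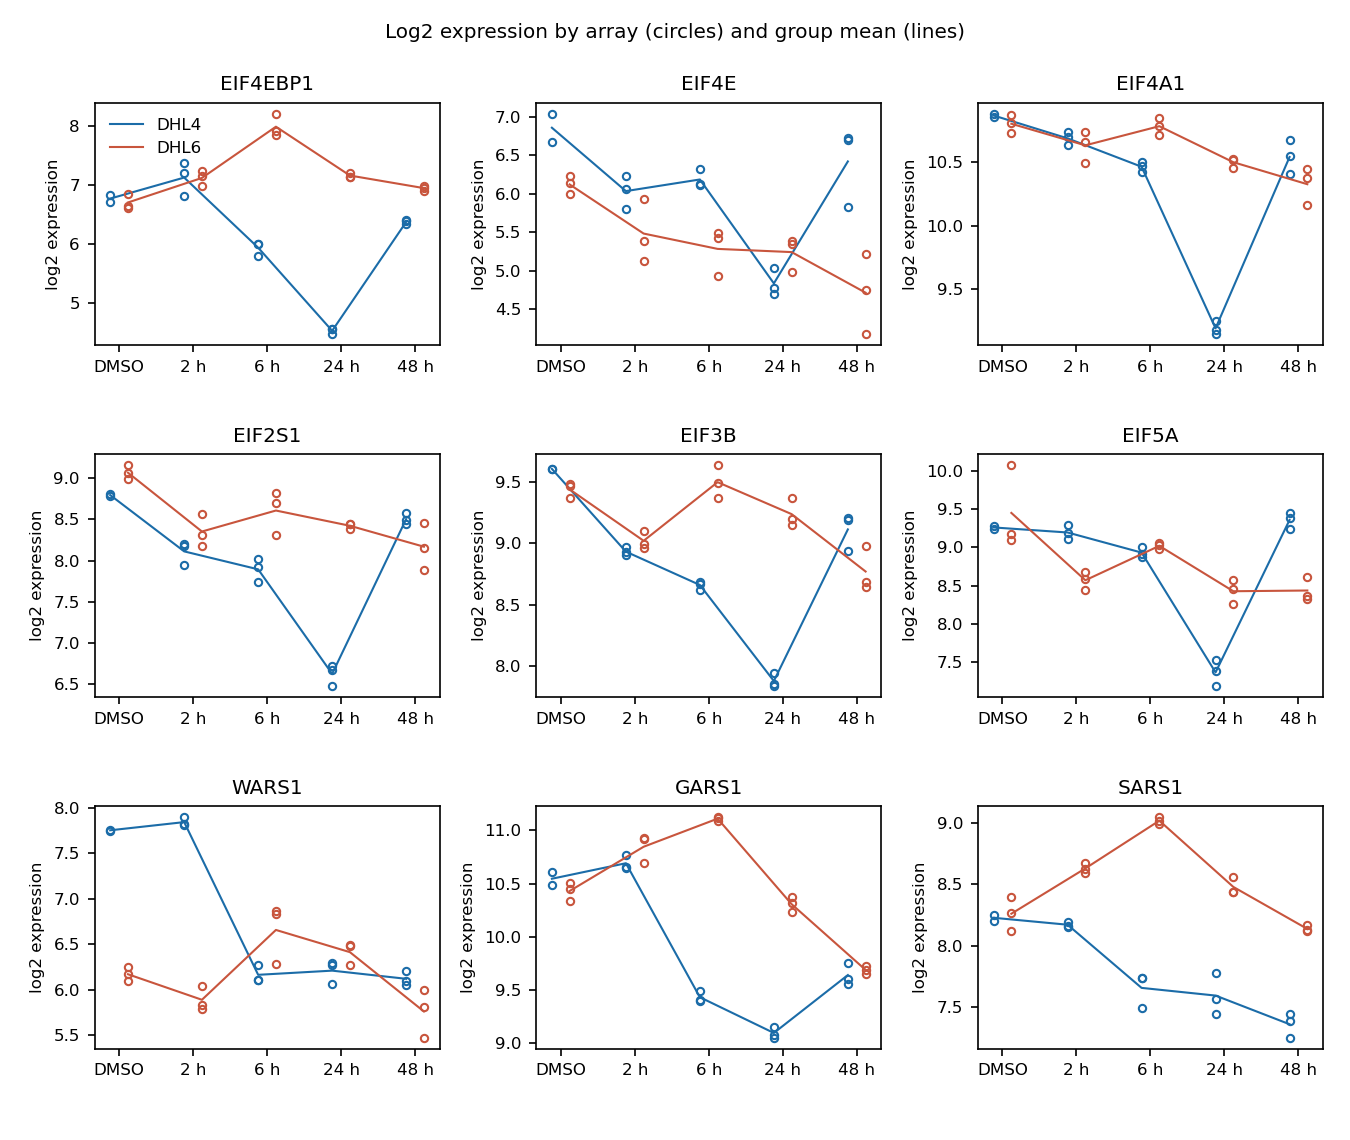
Log2 expression of 9 genes on every array (circles; lines join group means) against DMSO and time of R406, DHL4 in blue and DHL6 in red, each panel with its own vertical scale. In DHL4 the 24 h arrays of EIF4EBP1, EIF4E, EIF4A1, EIF2S1, EIF3B and EIF5A lie below DMSO and the 48 h arrays are higher again, whereas WARS1 stays between 6.05 and 6.29 from 6 h on.

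The eIF2 group brings the initiator tRNA. EIF2S1 encodes the alpha subunit, whose phosphorylation slows initiation. It read 8.81 and 8.79 in DHL4 DMSO, 8.18, 8.21 and 7.95 at 2 h, 6.72, 6.67 and 6.48 at 24 h and 8.58, 8.50 and 8.44 at 48 h. In DHL6 it read 9.06, 9.16 and 8.99 in DMSO, 8.18, 8.32 and 8.57 at 2 h and 7.89, 8.46 and 8.16 at 48 h. All treated arrays were below the DMSO arrays of their line, with the lowest values in DHL4 at 24 h. The falls were 4.51-fold in DHL4 at 24 h (-2.17 ± 0.15, limma adjusted p = 2.16e-11) and 1.87-fold in DHL6 at 48 h (-0.90 ± 0.14, 2.35e-05), and at 2 h they were -0.68 ± 0.15 in DHL4 (0.00364; 0.0508 without DHL4 DMSO replicate 1) and -0.72 ± 0.14 in DHL6 (0.00124). Dimmer probe sets of EIF2S1 did not show the 2 h fall in DHL6 (0.20 and 0.05, not passing), and they passed as lower there at 48 h only. The beta subunit gene EIF2S2 fell at 24 h in both lines, by 0.67 ± 0.11 in DHL4 and 0.33 ± 0.10 in DHL6 (0.0228), the latter lost without any of the DMSO replicates or 24 h replicates 1 and 2 (adjusted p up to 0.111).

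EIF2D went the other way. It encodes a factor that can bring tRNA to the ribosome without GTP. It read 7.90 and 7.74 in DHL4 DMSO and 8.55, 8.54 and 8.50 at 24 h, and 7.77, 7.71 and 7.68 in DHL6 DMSO and 8.39, 8.27 and 8.36 at 24 h. The 24 h arrays were above DMSO with no overlap in both lines, by 0.71 ± 0.10 in DHL4 (limma adjusted p = 4.11e-06) and 0.62 ± 0.09 in DHL6 (1.89e-05). At 48 h it was up by 0.42 ± 0.10 in DHL4 (0.00982; 0.34 and 0.210 without DHL4 DMSO replicate 2) and by 0.47 ± 0.09 in DHL6 (0.000415).

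eIF2B, a complex of 5 subunits, recharges eIF2 with GTP. In DHL4 at 24 h the genes of 3 subunits fell: EIF2B3 from 6.34 and 6.46 to 4.27, 4.83 and 4.99 (-1.70 ± 0.26, limma adjusted p = 8.25e-06), EIF2B2 by 1.34 ± 0.26 and EIF2B1 by 0.66 ± 0.13. By 48 h EIF2B3 read 6.57, 6.76 and 6.71, above both DMSO arrays. EIF2B4 rose instead, at 48 h in DHL4 (0.73 ± 0.15, adjusted p = 0.00216; 0.0517 without DHL4 DMSO replicate 1) and in DHL6 at 24 h (0.77 ± 0.13, 0.000184) and 48 h (0.54 ± 0.13, 0.00433), from levels close to 4.5. EIF2B5, the catalytic subunit, passed in no comparison with DMSO.

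eIF3, the largest initiation factor, had 12 subunit genes measured, and at 24 h in DHL4 they split evenly: EIF3A, EIF3B, EIF3I and EIF3J fell and EIF3F, EIF3G, EIF3H and EIF3L rose. EIF3B, a core subunit, read 9.60 and 9.61 in DHL4 DMSO, 8.96, 8.90 and 8.93 at 2 h, 8.69, 8.67 and 8.62 at 6 h, 7.84, 7.85 and 7.94 at 24 h and 9.20, 9.19 and 8.94 at 48 h. EIF3J, a loosely bound subunit, read 8.64 and 8.74 in DMSO and 6.78, 6.70 and 6.90 at 24 h. Neither gene overlapped with DMSO at any time in DHL4. EIF3B fell 3.31-fold at 24 h (-1.72 ± 0.11, limma adjusted p = 4.28e-12) and EIF3J 3.72-fold (-1.90 ± 0.13, 8.92e-12). At 48 h EIF3B was at -0.49 ± 0.11 (0.00498) and EIF3J at -0.47 ± 0.13 (0.0208), and both calls were lost without either DHL4 DMSO array (adjusted p = 0.0517 and 0.0612 for EIF3B, 0.0792 and 0.218 for EIF3J), that of EIF3J also without 48 h replicate 3 (0.0809).

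The subunits that rose did so by less. EIF3H read 11.18 and 11.29 in DHL4 DMSO and 11.72, 11.74 and 11.71 at 24 h (0.48 ± 0.08, limma adjusted p = 3.05e-05). EIF3F read 11.02 and 10.88 and then 11.39, 11.36 and 11.40 (0.43 ± 0.09, 0.00024). EIF3G read 9.67 and 9.71 and then 10.04, 10.17 and 10.01 (0.39 ± 0.11, 0.00589; 0.0559 without DHL4 DMSO replicate 1). None of the 3 overlapped with DMSO. EIF3L was at 0.25 ± 0.08 (0.0240), lost without DHL4 DMSO replicate 2 (0.16, 0.335) or 24 h replicate 1 (0.0545) or 2 (0.0554) and after centring. In DHL6, EIF3G rose at 24 h (0.50 ± 0.09, 0.000493) and 48 h (0.43 ± 0.09, 0.00140), from 8.83, 9.08 and 8.98 to 9.44, 9.51 and 9.43 at 24 h, while EIF3F was at 0.24 ± 0.08 at 24 h (0.0377), a call lost without any 1 of its 6 arrays (adjusted p up to 0.126).

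**Figure D3:**
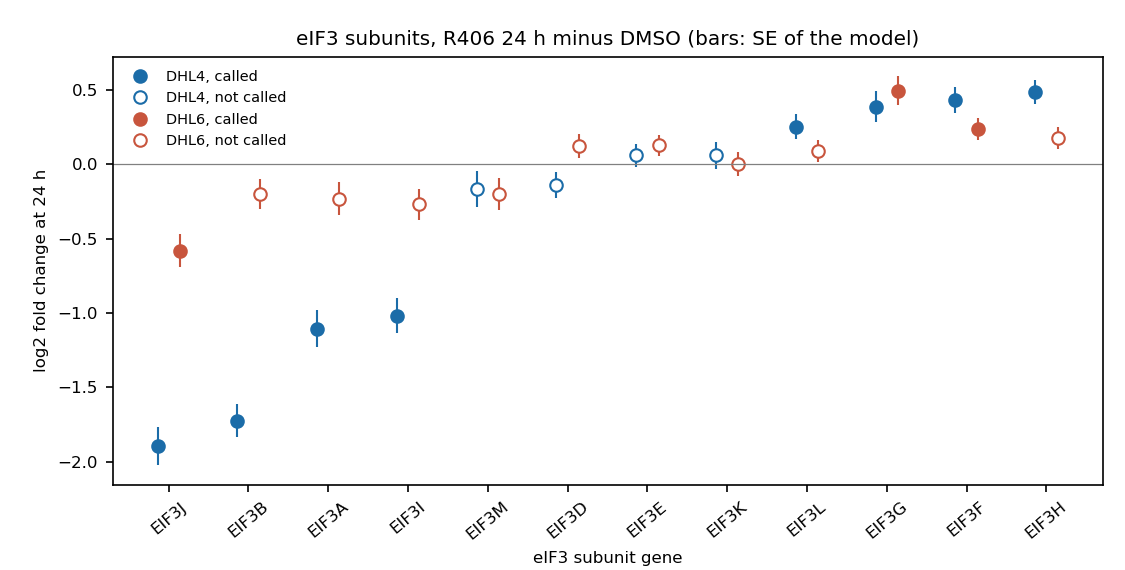
Log2 fold change at 24 h of R406 against DMSO for the 12 measured eIF3 subunit genes in both lines, with bars of ± 1 SE; filled points have a limma adjusted p under 0.05. In DHL4, 4 filled points lie below 0 and 4 above, and in DHL6 EIF3J is the filled point below 0.

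Among the remaining initiation factors, EIF5B, which joins the ribosomal subunits, fell in both lines at 2 h (-0.54 ± 0.11 in DHL4, limma adjusted p = 0.00123, and -0.40 ± 0.10 in DHL6, 0.0118, lost without DHL6 DMSO replicate 1 (0.0752) or 2 (0.0553) or 2 h replicate 2 (0.0803)) and in DHL4 stayed low at 6 h (-0.68 ± 0.11) and 24 h (-0.84 ± 0.11). EIF6, which keeps the large subunit apart until it is needed, fell in DHL4 at 24 h (-0.90 ± 0.20, 0.00105). EIF1AX, a scanning factor, was at 6.03, 5.95 and 4.74 in DHL4 at 2 h against 6.60 and 6.53 in DMSO (-0.99 ± 0.25, 0.00973). That value moved to -0.57 without 2 h replicate 3, the low array, and lost its call (0.0543), as it did without DHL4 DMSO replicate 1 (0.104) or 2 (0.0639).

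EIF5A, which helps the ribosome past difficult stretches and carries the amino acid hypusine, read 9.24 and 9.27 in DHL4 DMSO, 7.39, 7.53 and 7.19 at 24 h and 9.44, 9.39 and 9.24 at 48 h. In DHL6 it read 9.10, 9.18 and 10.07 in DMSO, 8.57, 8.46 and 8.26 at 24 h and 8.36, 8.61 and 8.33 at 48 h. DMSO replicate 3 of DHL6 was almost 1 log2 unit above the other DMSO arrays, and the treated arrays at 24 and 48 h were below all of them. The fall was 3.71-fold in DHL4 at 24 h (-1.89 ± 0.18, limma adjusted p = 6.65e-09) and 2.03-fold in DHL6 at 24 h (-1.02 ± 0.16, 5.93e-05). At 2 h in DHL6 it was -0.88 ± 0.16 (0.000918), and -0.57 without that DMSO replicate (0.00428). The DHL6 falls hold for the probe set used. Dimmer probe sets of EIF5A did not pass there at 2 h (-0.25 and -0.05), 24 h (-0.29 and -0.18) or 48 h (-0.10 and -0.04).

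Of the 6 elongation factors, 1 rose (EEF1D) and 1 fell (EEF1A2) in DHL4 at 24 h, a called share near that of all genes given above. EEF1A1, which delivers charged tRNA, stayed between 12.72 and 13.03 on all 29 arrays and passed in no comparison with DMSO. EEF2, which moves the ribosome along, read 12.41 and 12.34 in DHL4 DMSO and 12.26, 12.18 and 12.19 at 24 h, which did not pass (-0.16 ± 0.09, limma adjusted p = 0.185). In DHL6 at 6 h it was at 0.25 ± 0.08 (0.0414), a call lost without any 1 of its 6 arrays (adjusted p up to 0.164). Values this close to the top of the scale can be compressed on arrays, which was not tested.

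EEF1A2, the form of EEF1A1 known from muscle and neurons, read 5.50 and 5.62 in DHL4 DMSO, 3.47, 3.99 and 3.19 at 24 h and 4.68, 4.50 and 4.31 at 48 h. In DHL6 it lay between 2.61 and 3.21 on every array, at the floor, where no fall can be seen. In DHL4 it fell 4.02-fold at 24 h (-2.01 ± 0.18, limma adjusted p = 1.35e-09) and by 1.06 ± 0.18 at 48 h (0.000266). EEF1D, part of the exchange factor for eEF1A, rose from 9.24 and 9.31 to 9.97, 9.86 and 9.91 at 24 h in DHL4 (0.64 ± 0.11, 6.37e-05).

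Messenger RNAs of many translation factors are known to begin with a C followed by a run of C and T, the feature through which mTORC1 controls their translation. RefSeq start sequences (GRCh38.p14) were at hand for 66 of the 79 genes. They are shown for 4 genes with such a start and, for contrast, 4 that fell in DHL4 at 24 h without it; capitals mark the run of C and T from the annotated start, and each stretch is the first 18 bases of the transcript, on the strand given.
EEF1A1 (chr6:73521015-73521032, minus): CTTTTTCgcaacgggttt
EEF2 (chr19:3985446-3985463, minus): CTCTTCCgccgtcgtcgc
EIF3F (chr11:7987337-7987354, plus): CTTCTTTCTCgacaagat
EIF2D (chr1:206612448-206612465, minus): CCTTTTCgcggccgggcc
AARS1 (chr16:70289489-70289506, minus): acagctgcgcgtctgcgg
EIF2S1 (chr14:67360328-67360345, plus): atgcgcggtggagtgagc
EIF3B (chr7:2354827-2354844, plus): atggctgggctgtagccg
WARS1 (chr14:100376310-100376327, minus): gtttccacggacgcccag
A C at the start with at least 4 C or T after it was found in 11 of the 66 genes (16.7%), EEF1A1, EEF2, EIF2D, EIF2S3, EIF3D, EIF3F, EIF3K, EIF3M, EIF4A2, EIF4B and QARS1, and in 5.02% of the 9709 measured genes with a start sequence. In DHL4 at 24 h, 2 of these 11 rose (EIF2D and EIF3F) and 1 fell (EIF4B), with a median of 0.06, while 33 of the other 54 with a level to print fell and 0 rose, with a median of -0.65. The other 4 genes that rose there (EEF1D, EIF3G, EIF3H and EIF3L) had no start sequence at hand and are in neither group, and the fall of EIF4B was lost without 24 h replicate 2, as given above. In DHL6 at 24 h the counts were 2 higher and 0 lower of 11 (median 0.12) and 2 higher and 9 lower of 54 (median -0.17). This grouping was made with the results known and is a description of annotated letters, since the starts used in these cells were not measured.

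**Figure D4:**
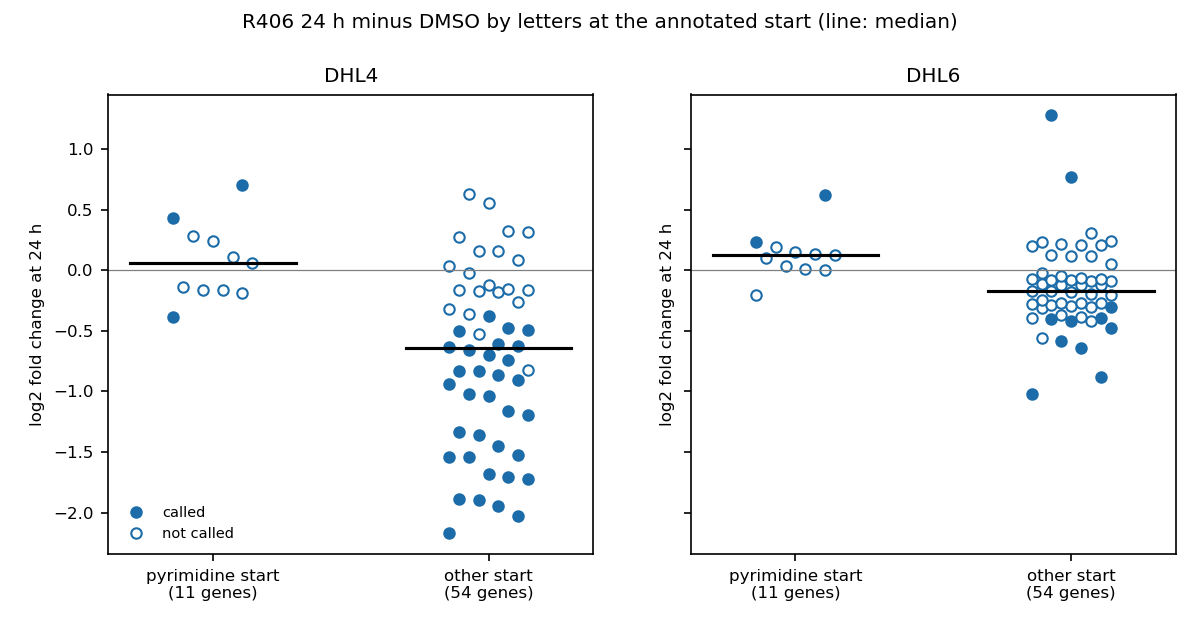
Log2 fold change at 24 h of R406 against DMSO in DHL4 and DHL6 for the 11 genes whose annotated start is a C followed by at least 4 C or T and for 54 others (points are genes, lines are medians). In DHL4 the medians are 0.06 and -0.65, and in DHL6 0.12 and -0.17.

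The cytosolic synthetases are described by line. In DHL4, 1 of 18 fell at 2 h (IARS1), 12 at 6 h with a median of -0.59, 13 at 24 h with a median of -0.84 and 7 at 48 h with a median of -0.30; QARS1 alone rose, at 6 h (0.35, limma adjusted p = 0.0429), a call lost without either DHL4 DMSO array (0.0795 and 0.374) or without 6 h replicate 2 (0.154) or 3 (0.121). In DHL6, 3 of 18 rose at 2 h (CARS1, GARS1 and SARS1, the last not without DMSO replicate 1 or 3 or 2 h replicate 1 or 3, adjusted p up to 0.147) and 4 at 6 h (GARS1, SARS1, WARS1 and MARS1) with a median of 0.26, and 0 fell at either time. Later in DHL6, 2 fell at 24 h (IARS1 and YARS1, the latter not without 24 h replicate 3, 0.0558, nor after quantile normalization) and 8 fell at 48 h with a median of -0.30. Fewer fell at 48 h without the 4 arrays of lowest upper quartile, with replicate 2 alone left in that group. The called shares in DHL4 at 2 h and in DHL6 at 24 h were below those of all genes given above. QARS1 rose in DHL6 at 48 h (0.36 ± 0.10, limma adjusted p = 0.0110), a call lost without DHL6 DMSO replicate 3 (0.0654). Quantile normalization gave 8 higher in DHL6 at 6 h, and in DHL4 at 24 h 13 lower and 2 higher (CARS1 and QARS1).

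GARS1, which charges glycine tRNA, read 10.61 and 10.48 in DHL4 DMSO, 10.64, 10.77 and 10.66 at 2 h, 9.41, 9.48 and 9.40 at 6 h, 9.08, 9.05 and 9.15 at 24 h and 9.75, 9.61 and 9.56 at 48 h. In DHL6 it read 10.45, 10.51 and 10.33 in DMSO, 10.92, 10.93 and 10.70 at 2 h, 11.12, 11.12 and 11.09 at 6 h, 10.23, 10.31 and 10.37 at 24 h and 9.65, 9.69 and 9.72 at 48 h. In DHL4 the 6, 24 and 48 h arrays were all below DMSO. DHL6 arrays were above DMSO at 2 and 6 h and below it at 48 h. The DHL4 falls were 2.17-fold at 6 h (-1.12 ± 0.10, limma adjusted p = 4.11e-09) and 2.74-fold at 24 h (-1.45 ± 0.10, 6.43e-12), and DHL6 rose 1.6-fold at 6 h (0.68 ± 0.09, 3.07e-06) and fell 1.67-fold at 48 h (-0.74 ± 0.09, 4.92e-07).

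WARS1, the tryptophan enzyme, which interferon also induces, read 7.76 and 7.75 in DHL4 DMSO and 7.82, 7.89 and 7.81 at 2 h, then 6.27, 6.11 and 6.11 at 6 h, 6.29, 6.06 and 6.27 at 24 h and 6.21, 6.10 and 6.05 at 48 h. The level dropped between 2 and 6 h and all later arrays were low, a 3.01-fold fall at 6 h (-1.59 ± 0.15, limma adjusted p = 2.3e-08) and 3.1-fold at 48 h (-1.63 ± 0.15, 4.83e-08). In DHL6 it read 6.09, 6.25 and 6.17 in DMSO and 6.86, 6.83 and 6.28 at 6 h, where the third array was close to DMSO. That rise (0.49 ± 0.13, 0.0219) was lost without DMSO replicate 1 (0.0970) or 3 (0.0667) or 6 h replicate 1 (0.119) or 2 (0.110).

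SARS1, the serine enzyme, read 8.20 and 8.25 in DHL4 DMSO and 7.73, 7.49 and 7.74 at 6 h, and in DHL6 8.26, 8.40 and 8.12 in DMSO and 9.02, 9.05 and 8.99 at 6 h. The 6 h arrays lay below DMSO in DHL4 (-0.57 ± 0.11, limma adjusted p = 0.000354) and above it in DHL6 (0.76 ± 0.10, 3.07e-06). In DHL4 it stayed down at 24 h (-0.63 ± 0.11, 3.08e-05) and 48 h (-0.87 ± 0.11, 4.13e-06). MARS1, which charges both initiator and elongator methionine tRNA, read 8.21 and 8.27 in DHL4 DMSO and 7.20, 7.42 and 7.25 at 6 h (-0.95 ± 0.11, 8.04e-07). In DHL6 at 6 h it was at 0.43 ± 0.10 (0.00572; 0.37 and 0.0520 without DHL6 DMSO replicate 3).

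The synthetases IARS1, YARS1, AARS1 and EPRS1 fell in DHL4 by 6 h and, with the probe sets used here, did not pass in DHL6 at 2 or 6 h. IARS1, the isoleucine enzyme, read 10.43 and 10.45 in DHL4 DMSO, 10.02, 10.02 and 9.78 at 2 h, 9.22, 9.18 and 9.15 at 6 h, 8.61, 8.54 and 8.32 at 24 h and 10.06, 10.10 and 10.08 at 48 h. It stepped down at each time to 24 h (-1.95 ± 0.11, a 3.85-fold fall, limma adjusted p = 7.49e-13). YARS1, the tyrosine enzyme, was at 7.57, 7.69 and 7.65 at 6 h against 8.99 and 9.12 in DMSO (-1.42 ± 0.11, 6.07e-10). AARS1, the alanine enzyme, read 7.06 and 6.89 in DHL4 DMSO, 5.84, 5.66 and 5.53 at 6 h, 5.93, 5.72 and 5.78 at 24 h and 5.86, 5.89 and 5.96 at 48 h, low and level from 6 h on (-1.30 ± 0.15 at 6 h, 8.43e-07, and -1.07 ± 0.15 at 48 h, 4.27e-05). In DHL6 AARS1 fell at 48 h, from 8.20, 8.22 and 8.13 to 6.93, 7.38 and 7.66 (-0.85 ± 0.14, 5.16e-05). EPRS1, the enzyme for both glutamate and proline, fell in DHL4 at 6 h (-0.55, 0.000683) and 24 h (-1.36 ± 0.11, 1.9e-10) and passed at no time in DHL6 with the probe set used, while a dimmer probe set of the gene rose there at 6 h (0.45 ± 0.09, 0.00119).

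CARS1, the cysteine enzyme, read 8.24 and 8.28 in DHL4 DMSO, 7.79, 7.30 and 7.57 at 6 h, 8.59, 8.50 and 8.66 at 24 h and 7.87, 7.70 and 7.41 at 48 h. It was low at 6 h (-0.71 ± 0.14, limma adjusted p = 0.000556), above both DMSO arrays at 24 h without passing (0.32 ± 0.14, 0.0854), and low again at 48 h (-0.60 ± 0.14, 0.00576; 0.0764 without DHL4 DMSO replicate 2). In DHL6 it rose at 2 h, from 9.28, 9.39 and 9.34 to 9.80, 9.95 and 10.06 (0.60 ± 0.12, 0.00234). VARS1, the valine enzyme, read 4.39 and 4.34 in DHL4 DMSO, 3.11, 3.19 and 3.15 at 6 h and 3.38, 3.11 and 2.84 at 24 h. It fell there at 6 h (-1.22 ± 0.30, 0.00626; 0.0608 and 0.0524 without DHL4 DMSO replicate 1 and 2) and 24 h (-1.26 ± 0.30, 0.00184), to levels near the floor. In DHL6 it fell at 48 h from 5.92, 5.87 and 5.73 to 3.78, 5.15 and 4.29 (-1.44 ± 0.27, limma adjusted p = 0.000298). That call was lost without the 4 arrays of lowest upper quartile, which include the 2 lowest of these, with replicate 2 alone left in the group.

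ATF4 and C/EBP proteins are known to bind a joined element whose core letters are TGATGNAA. These letters were searched on both strands of the RefSeq stretch from 250 bases before to 50 after each annotated start, and were found in 6 of the 15 cytosolic synthetases with a sequence (40%) and in 2.24% of the 9709 genes. The 6 stretches of 30 bases are printed because all 6 genes fell in DHL4 at 6 h, a choice made with the results known. In DHL6 none of the 18 cytosolic synthetases fell then, with or without the letters. Capitals mark the match, which is TGATGCAA or, read from the other strand, TTGCATCA, and no stretch holds the E-box letters CACGTG.
AARS1 (chr16:70289675-70289704, minus): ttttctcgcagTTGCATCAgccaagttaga
CARS1 (chr11:3057407-3057436, minus): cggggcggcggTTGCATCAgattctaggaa
IARS1 (chr9:92293692-92293721, minus): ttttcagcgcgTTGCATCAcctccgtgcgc
MARS1 (chr12:57488053-57488082, plus): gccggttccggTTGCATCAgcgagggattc
NARS1 (chr18:57621804-57621833, minus): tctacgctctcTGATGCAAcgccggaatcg
TARS1 (chr5:33440956-33440985, plus): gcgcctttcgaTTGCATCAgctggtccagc
All 6 genes fell in DHL4 at 6 h (median -0.83), as did 4 of the 9 synthetases without the letters (median -0.55; QARS1 rose). NARS1 lost its call there without DHL4 DMSO replicate 1 (0.207) or 2 (0.0676) or 6 h replicate 1 (0.0751). At 24 h in DHL4, 4 of the 6 fell against 7 of the 9. In DHL6 at 6 h 1 of the 6 rose (MARS1, median 0.29) against 3 of the 9 (GARS1, SARS1 and WARS1, median 0.25). The letters are a description, not a measured binding site, and GARS1 and WARS1, with some of the widest gaps between the lines, do not hold them in this window.

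The synthetases of mitochondria charge tRNAs for the few proteins made there. Of 11, 1 fell in DHL4 at 6 h (CARS2) and 3 at 24 h (CARS2, IARS2 and YARS2), and in DHL6 1 rose at 24 h and 3 fell at 48 h (FARS2, IARS2 and NARS2). These called shares were near or below those of all genes given above for the same lines and times, so the counts are not read as a result about this group. The YARS2 call (-0.38) was lost without DHL4 DMSO replicate 2 (-0.23, limma adjusted p = 0.275) or 24 h replicate 1 (0.0509) and after quantile normalization. CARS2 read 5.76, 5.89 and 5.71 in DHL6 DMSO, 7.04, 7.07 and 7.09 at 24 h and 5.89, 5.82 and 6.36 at 48 h. The 24 h arrays stood apart from all others of the line, a 2.42-fold rise (1.28 ± 0.15, limma adjusted p = 5.12e-07). In DHL4 CARS2 read 7.32 and 6.93 in DMSO and 6.62, 6.62 and 6.65 at 24 h (-0.50, 0.0222). That call was lost without DHL4 DMSO replicate 1 (-0.30, 0.357), and so was the 6 h call (-0.61, 0.0112; -0.42 and 0.270 without it). NARS2 (-1.08 ± 0.25, 0.00264) and FARS2 (-1.11 ± 0.28, 0.00542) in DHL6 at 48 h lost their calls without the 4 arrays of lowest upper quartile, with replicate 2 alone left in that group. Another FARS2 probe set, of nearly the same mean (4.11 against 4.12), did not pass in DHL6 at 48 h (0.32). In DHL4 at 24 h it rose (1.92, limma adjusted p = 6.6e-06), where the probe set used did not pass (-0.16).

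The response was then compared between the lines as a difference of differences, DHL6 minus DHL4. At 2 h 1 of 79 genes differed, CARS1 (1.76% of all genes were called, 1.22% higher in DHL6 and 0.534% lower), by 0.71 ± 0.18 (limma adjusted p = 0.0434); the call was lost without any 1 of the 11 arrays other than DHL4 2 h replicate 2 and DHL6 2 h replicate 1 (adjusted p up to 0.170), and also with arrays centred on their median, with the probe set of largest variance and with the replicate number as a block. At 6 h 18 differed (22.8% of 79, against 7.04% of all genes), all 18 higher in DHL6, where 3.08% of all genes were higher and 3.96% lower. They include 11 of the 18 cytosolic synthetases, whose median difference was 0.95. EIF4EBP1 (2.11 ± 0.18, 2.11e-08), WARS1 (2.08 ± 0.20, 1.46e-07) and GARS1 (1.80 ± 0.13, 1.79e-09) differed most. Across the 79 genes the fold changes of the lines correlated at -0.13 at 6 h, against 0.33 across all genes, and at 0.59, 0.53 and 0.40 at 2, 24 and 48 h, where all genes gave 0.50, 0.55 and 0.44. These are correlations across genes, which share arrays and are not replicates.

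At 24 h 31 of the 79 differed (39.2%, against 16.4% of all genes), all 31 higher in DHL6, where 9.35% of all genes were higher and 7% lower. The group held 10 of 18 cytosolic synthetases, 7 of 9 eIF4 genes and 4 of 12 eIF3 genes. EIF4EBP1 (2.69 ± 0.18, limma adjusted p = 6.25e-11), WARS1 (1.79 ± 0.20, 3.83e-07) and CARS2 (1.77) were among the largest. EEF1A2 was at 2.08, but with DHL6 at the floor a fall could not be seen there. Quantile normalization gave 32 higher and 2 lower. At 48 h 8 differed (10.1%, against 5.08% of all genes, 1.62% higher and 3.46% lower), 4 each way, and 5 higher and 3 lower after quantile normalization. SARS1 (0.74 ± 0.14, 0.00193), WARS1 (1.22 ± 0.20, 0.000454) and EIF5A (-1.11 ± 0.25, 0.00765) differed there without any array deciding the call. The EIF5A difference holds for the probe set used. Dimmer probe sets of EIF5A were at -0.10 and -0.04 in DHL6 and -0.11 and -0.11 in DHL4 at 48 h against DMSO. EIF2S3, EIF4EBP1, EEF1A2, FARS2 and NARS2 each lost their call without some array. The 48 h count was 4 without DHL6 DMSO replicate 1, 5 without DHL4 48 h replicate 1 or 2 or DHL6 48 h replicate 1, and 15 without DHL6 48 h replicate 2. It was also lower without either DHL4 DMSO array and without the 4 arrays of lowest upper quartile, fits that leave a group with 1 array.

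**Figure D5:**
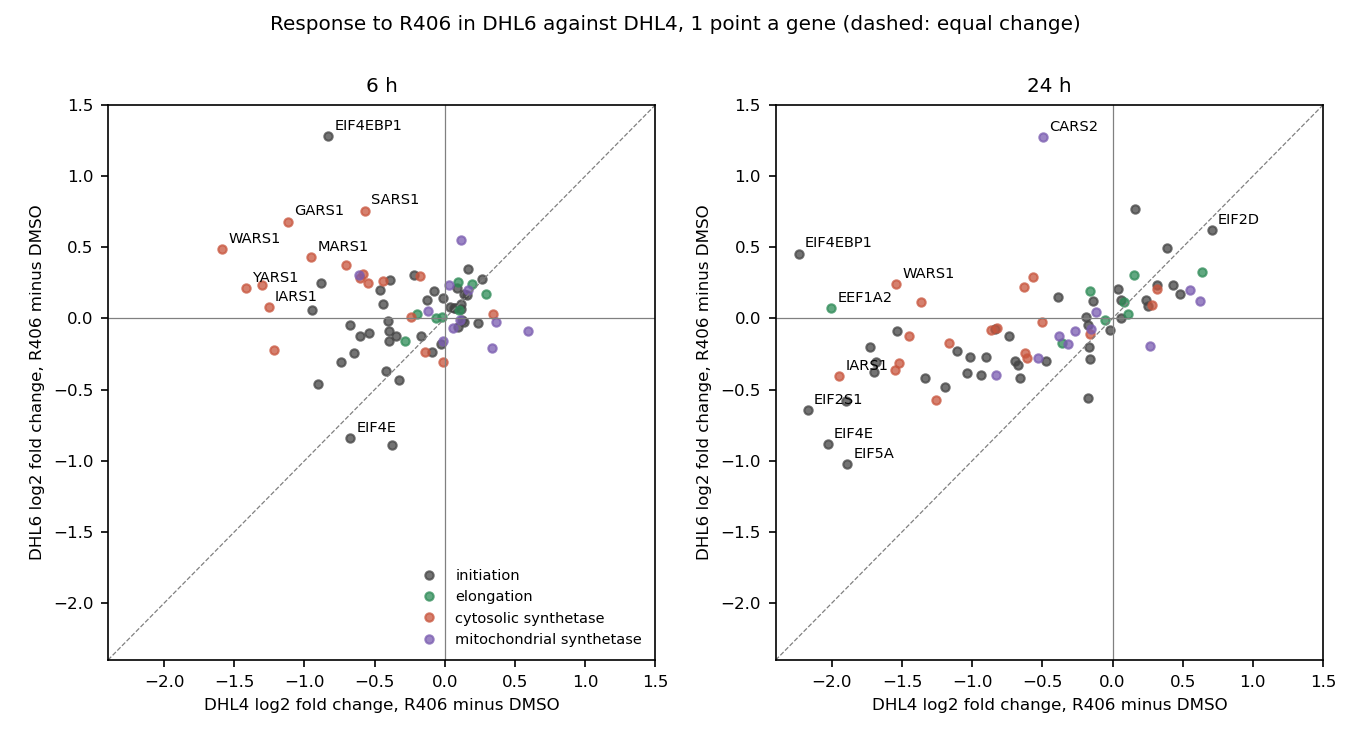
Log2 fold change of R406 against DMSO for each gene in DHL4 (horizontal) and DHL6 (vertical) at 6 h and 24 h. At 6 h EIF4EBP1, GARS1, SARS1, MARS1 and WARS1 lie to the left of 0 and above 0, and at 24 h most genes lie left of 0 with smaller changes in DHL6.

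From 24 to 48 h most of the genes that passed were higher in DHL4 and lower in DHL6, and fewer differed between the lines at 48 h than at 24 h. In DHL4, 38 genes were higher at 48 h than at 24 h and 6 lower (55.7% of 79 called, against 25.1% of all genes, 14.4% higher and 10.7% lower), among the higher 10 of 18 cytosolic synthetases, 7 of 9 eIF4 genes and 4 of 5 eIF2B genes. EIF5A (1.99 ± 0.16), EIF2B3 (1.98 ± 0.23) and EIF2S1 (1.88 ± 0.14) led these, and CARS1 (-0.92 ± 0.12), TARS1 (-0.63 ± 0.11), the threonine enzyme, and EEF1D (-0.55 ± 0.10) led the falls. Of the 41 genes that had fallen in DHL4 at 24 h, 34 were higher at 48 h and 11 still passed as lower than DMSO. The fall at 24 h and the step to 48 h share the DHL4 24 h arrays. Low values on these arrays favour both calls, so the 34 are not independent of the choice of the 41. WARS1 (-0.09 ± 0.13, limma adjusted p = 0.737) and AARS1 (0.09 ± 0.14, 0.744) did not pass for the step and remained among those 11. In DHL6, 16 genes were lower at 48 h than at 24 h and 0 higher (20.3%, against 6.72% of all genes, 5.06% lower and 1.65% higher), led by CARS2 (-1.04 ± 0.15, 7.98e-05), FARS2 (-1.03 ± 0.28, 0.0277) and NARS2 (-0.88 ± 0.25, 0.0343); quantile normalization gave 11 lower and 2 higher. That count was 10 without DHL6 24 h replicate 1 or 2 or 48 h replicate 1, and 8 without 24 h replicate 3. It was also lower without the 4 arrays of lowest upper quartile, with replicate 2 alone left in DHL6 48 h. The calls of FARS2 and NARS2 were lost without any of the 24 h replicates or 48 h replicate 1 or 3 (limma adjusted p up to 0.149 and 0.195). The FARS2 step is that of the probe set used, while the other one described above was at 0.42 against DMSO at 24 h and 0.32 at 48 h in DHL6.

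The lines also differed before treatment. In DMSO 15 genes were higher in DHL6 and 14 lower (36.7% of 79 called, against 20.6% of all genes, 10% higher and 10.5% lower). EEF1A2 (-2.75 ± 0.18, limma adjusted p = 8.37e-12), WARS1 (-1.58 ± 0.15, 1.03e-08) and CARS2 (-1.34 ± 0.16, 6.22e-07) were the furthest below DHL4; EEF1A2 was at the floor in DHL6, so the size of its difference is a lower bound. HARS2, the mitochondrial histidine enzyme (1.78 ± 0.24, 3.45e-06), VARS1 (1.47 ± 0.30) and FARS2, the mitochondrial phenylalanine enzyme (1.29 ± 0.32; 1.07 and 0.0859 without DHL4 DMSO replicate 2), were the furthest above, with DHL4 DMSO levels of 3.33 and 3.40, 4.39 and 4.34, and 3.69 and 3.27; those of HARS2 and FARS2 are near the floor, which limits their values in the same way. The FARS2 probe set of nearly the same brightness was at 0.70 and did not pass. The WARS1 level that DHL4 reached after 6 h of R406, 6.11 to 6.27, was close to that of DHL6 DMSO, 6.09 to 6.25.

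Genes around these factors were read from lists of their regulators and partners. In DHL4 at 24 h a larger share of each list was called than of all genes, given above, except for the list of AIMP1, where it was near. The same held in DHL6 at 48 h for the list of poly(A) binding, termination and recycling. The lists hold few genes and were chosen with earlier results of these data known, so these shares are a description. Of 14 measured genes of mTORC1 and eIF4E control, 5 fell and 4 rose in DHL4 at 24 h, and the mTOR inhibitor gene DEPTOR moved in opposite directions in the lines (-3.19 ± 0.14 in DHL4, limma adjusted p = 6.59e-15, and 1.00 ± 0.13 in DHL6, 2.05e-06). DDIT4, which restrains mTORC1, fell in both, by 2.84 ± 0.18 in DHL4 at 2 h and 1.87 ± 0.16 in DHL6 at 24 h. Of 9 genes of the eIF2 kinases and their targets, 2 rose and 2 fell in DHL4 at 24 h. EIF2AK3, the kinase PERK that phosphorylates eIF2 alpha, was up in DHL4 by 2.16 ± 0.22 at 2 h and 2.91 ± 0.22 at 6 h (6.07e-10), while in DHL6 it passed at 48 h only (0.59 ± 0.20, 0.0316). TRIB3, a target of ATF4, fell in DHL4 at every time (-1.52 ± 0.22 at 2 h).

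Of 11 genes of poly(A) binding, termination and recycling, 6 fell and 1 rose in DHL4 at 24 h, and 8 fell in DHL6 at 48 h. ABCE1, which splits ribosomes for reuse, fell by 2.56 ± 0.20 in DHL4 at 24 h (limma adjusted p = 1.82e-10) and 1.14 ± 0.18 in DHL6 at 48 h (4.28e-05), and GSPT1, a release factor, by 1.76 ± 0.13 in DHL4 at 24 h (2.7e-11). AIMP1, a scaffold of the synthetase complex, fell at 24 h by 0.95 ± 0.18 in DHL4 (0.000121) and 0.68 ± 0.16 in DHL6 (0.00349), where it was the 1 gene of 3 on its list to fall, and DOHH, which completes hypusine on eIF5A, by 0.64 ± 0.20 in DHL6 at 48 h (0.0236). DHPS, also on that list, rose in DHL6 at 24 h (0.52 ± 0.12, 0.00348). It did not pass in DHL4 at 24 h (-0.07) or in DHL6 at 48 h (0.22). Of 6 mitochondrial translation factors 2 rose and 2 fell in DHL4 at 24 h, MTRF1, of the release factor family, by 1.26 ± 0.34 (0.00513) and the elongation factor gene TSFM by -0.95 ± 0.16 (4.14e-05).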

How the data were processed

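The deposited log2 values were made by the authors with RMA, per the submitters' processing notes. The RMA version is not given in the sources used here, nor is the set of arrays it took together. RMA corrects background, normalizes quantiles and summarises probes, which draws dim probe sets together and understates their fold changes. Of 22277 probe sets, 19724 had a single symbol in the platform annotation, updated through Entrez identifiers. Each of the 12165 genes took its probe set of highest mean, 34 of the 79 genes here from several and 45 from 1, while 11 probe sets shared with other genes were not used.

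A linear model of 10 group means was fitted to 29 arrays by limma's lmFit and eBayes (version 3.58.1, R 4.3.3; residual degrees of freedom 19, prior 5.05), adjusted over all genes per comparison and called under 0.05. It was tested on simulated data. The number of arrays limits the precision. Alternatives were another scaling, probe set rule, filter of the dimmest genes, variance model, sample set and replicate block, and each array left out.

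Genes named are, in each line and time, the 4 called genes with the greatest rise and the 4 with the greatest fall (3 each way for differences between lines, for 48 against 24 h and for DMSO), the largest change of each role, at most 2 of each regulator list, and 20 genes listed by name, of which 3 were not measured; further genes were named after their values were seen. Members and lists were chosen with earlier results of these data known. EIF1AY is counted, with its level not given. Start and promoter letters are RefSeq's (GRCh38.p14), matched by Entrez identifier.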

Additional observations from a re-analysis of the deposited data

Results flagged for a closer look

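The differences of response between the lines (DHL6 minus DHL4, log2, tested in the limma model as a difference of differences) drew attention because the same treatment gave unlike effects. Their counts were 1, 18, 31 and 8 of 79 genes at 2, 6, 24 and 48 h. At 2 h the gene was CARS1, at 0.71.

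At 6 h the largest were EIF4EBP1 at 2.11, WARS1 at 2.08, GARS1 at 1.80, YARS1 at 1.63, AARS1 at 1.54, MARS1 at 1.39, IARS1 at 1.33, SARS1 at 1.33, EIF4G1 at 1.13, CARS1 at 1.08 and EIF3B at 1.00. Of these 11 genes, 8 are cytosolic synthetases. EIF1, of start codon scanning, is not among them because the probe set used, with a mean of 12.07 near the top of the scale, did not pass (0.26). Its probe sets with means of 9.60, 9.64 and 9.67 passed, at 1.39, 1.45 and 1.49, and its dimmest, at 0.54, did not. Those that passed rose in DHL6 at 6 h (0.90, 0.92 and 0.96) and fell in DHL4 (-0.49, -0.53 and -0.53). They also rose in DHL6 at 2 h (0.82, 0.77 and 0.80) and 24 h (0.44, 0.47 and 0.42). In DHL6 at 48 h they did not pass (0.11, 0.26 and 0.13), while the probe set used is counted there as a fall (-0.26).

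At 24 h the initiation factors were EIF4EBP1 at 2.69, EIF2S1 at 1.53, EIF3B at 1.52, EIF4G1 at 1.45, EIF4A1 at 1.38, EIF2B3 at 1.33, EIF3J at 1.32 and EIF4E at 1.15. The elongation factor EEF1A2 was at 2.08, with DHL6 at the floor. The synthetases were WARS1 at 1.79, CARS2 at 1.77, IARS1 at 1.54, EPRS1 at 1.48, GARS1 at 1.33, FARSA at 1.21 and YARS1 at 1.19. The EIF4E difference lost its call without any of DHL4 DMSO replicate 1 (0.96, adjusted p = 0.164), DHL6 DMSO replicate 2, DHL4 24 h replicates 1 and 2 and DHL6 24 h replicates 1 and 3.

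At 48 h WARS1 was at 1.22, EEF1A2 at 0.92, SARS1 at 0.74, EIF5A at -1.11, NARS2 at -1.50 and FARS2 at -1.53. The values of EIF5A and FARS2 hold for the probe sets used, and other probe sets of these genes did not pass in DHL6 at 48 h. NARS2 and FARS2 were lower in DHL6 48 h replicates 1 and 3 than in replicate 2, and those 2 arrays are among the 4 with the lowest upper quartile. Without these 4 the differences of NARS2 and FARS2 did not pass, but DHL6 48 h is then left with replicate 2 alone. No group has more than 3 arrays, so no array was tested against its group.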

How the results depend on the processing

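The counts of called genes at 24 h in DHL4 (45 to 53), at 6 and 48 h in DHL4 and at 24 h in DHL6, and the differences between lines at 6 h (17 to 23) and 24 h (28 to 37), stayed within 1.5 times under all 9 alternatives. The small counts moved. In DHL4 at 2 h the count of 10 was 16 with only that line in the fit, 16 with the mean of a gene's probe sets and 20 with a trended, robust variance. In DHL6 at 2 h 11 became 7 with the line alone and 17 without the 4 arrays of lowest upper quartile, a set chosen after seeing the data. At 6 h 9 became 14 after quantile normalization, 4 with the line alone and 14 with the trended variance. At 48 h fewer than 34 were called without those 4 arrays, with replicate 2 alone left in DHL6 48 h. The difference between lines at 2 h, 1 gene, was 0 after centring, 3 with the mean of probe sets, 0 with the most variable probe set and 5 with the trended variance. At 48 h it was 5 with only the compared groups, and the 48 against 24 h step in DHL6, 16, was 9 with the line alone. Both counts were also lower without the 4 arrays, a fit with replicate 2 alone in DHL6 48 h.

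Leaving out 1 array at a time gave 6 to 14, 17 to 25, 42 to 46 and 10 to 19 genes in DHL4 at 2, 6, 24 and 48 h, and 6 to 10, 4 to 8, 13 to 16 and 29 to 37 in DHL6. The differences between lines gave 0 to 1, 14 to 19, 26 to 31 and 3 to 15, the step to 48 h 41 to 46 in DHL4 and 8 to 22 in DHL6, and DMSO 20 to 26. Arrays with the same replicate number deviated together, at a correlation over 0.1, in 6 of 56 pairs, so the numbers were not used as pairs. With the replicate number as a block the difference at 2 h was 0 genes, and the DHL4 24 h count was 45.

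EIF4A1 in DHL6 reversed at 24 h to 0.16 with the mean of its probe sets and 1.12 with the most variable, and at 48 h to 0.13 with the latter, its dimmer probe set. For values of single named genes, 3 reversed, 77 lost and 64 gained a call under these alternatives and 2008 did neither. These counts leave out the fits with 1 array left out, in which more calls were lost than gained. The values that did neither include those of genes called in neither fit. The cause of these shifts was not tested. A gene at the floor, such as EEF1A2 in DHL6, cannot show a fall.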

Other observations

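ATF4, named here after its values were seen, rose in DHL6 at 2 h (0.65 ± 0.09, limma adjusted p = 4.47e-05) and 6 h (0.70 ± 0.09, 7.09e-06) and fell in DHL4 at 24 h (-0.39 ± 0.10, 0.00534) and 48 h (-0.57 ± 0.10, 0.000715). Its target DDIT3 fell in DHL4 at 6 h (-0.74 ± 0.21, 0.0164) and rose there at 24 h (0.66 ± 0.21, 0.0168). The E-box letters CACGTG, which MYC and related factors bind, were found in the promoter stretch of 12 of 66 of the translation genes (18.2%) and of 5 of 9 eIF4 genes (55.6%; EIF4A3, EIF4B, EIF4E, EIF4G1 and EIF4H), against 9.43% of 9709 genes, as a description of these letters.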
